A study of Stylosanthes guianensis with 9 samples.

Results

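The change in RNA levels in stylo root tips between 24 and 72 h after germination was examined over all genes that could be tested. Of the 9 libraries of the series, 6 belong to this comparison, with replicates 1, 2 and 3 at each time, and 3 libraries from 48 h served to estimate the spread and to show where the levels lay in between. A gene was tested if 3 or more of the 9 columns gave it an RPKM of 1 or more, which held for 28428 of 54199 genes. RPKM is the number of reads of a gene relative to its length and to the total reads in its library.

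Stylosanthes guianensis, called stylo here, is a forage plant of the legume family. All groups were roots of the genotype Reyan No. 2, described as root tips in the design of the series, and were labelled only by their time of 24, 48 or 72 h after germination. No mutant, transgene or treatment is named for any group, and the labels do not say how many seedlings made up a sample or whether replicates were grown separately, so p-values measure only the spread between these samples. The title of the series concerns border-like cells and aluminum resistance. The genes carry the numbers of assembled components without names or sequences, so that the tissue could not be checked against marker genes and no gene can be given a function.

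A root tip holds the root cap, the meristem where cells divide, and the zone where they elongate. In the first days after germination the young root changes from living on seed reserves to exploring its substrate, and the outer root cap begins to release border cells or, where they stay attached to each other in sheets, border-like cells. This release depends on enzymes that loosen pectin between cells, such as polygalacturonases. In RNA from whole root tips, a lower level of a gene can come from fewer cells of a type or from less RNA per cell, and the 2 cannot be told apart.

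Library totals lay between 28453545 and 37783453 reads. Replicates 1 and 3 at 72 h were near copies. No gene had fewer reads in replicate 3, while 21684 genes had equal reads above 0 and 23930 had more. They were averaged into 1 sample, so that 3 samples at 24 h were compared with 2 at 72 h. Replicate 1 at 24 h and replicate 2 at 72 h stood apart by their many genes at 0, and the main counts are therefore given with and without them.

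More genes fell than rose from 24 to 72 h. By limma on log2(RPKM + 1), at a Benjamini-Hochberg adjusted p under 0.05, 1102 genes rose, 3.88% of those tested, and 2679 fell, 9.42%. Falls were also larger in the median than rises. The median change was 1.02 on the log2 scale among genes that rose and -1.72 among those that fell, against -0.07 over all genes tested. A change of at least 2-fold was reached by 566 of the rising genes, which is 1.99% of the genes tested, and by 2276 of the falling genes, which is 8.01%. At least 4-fold changes were seen in 127 rising and 999 falling genes, and at least 16-fold changes in 12 rising and 148 falling genes. Folds were taken from log2(RPKM + 1), so those of low genes are understated.

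**Figure D1:**
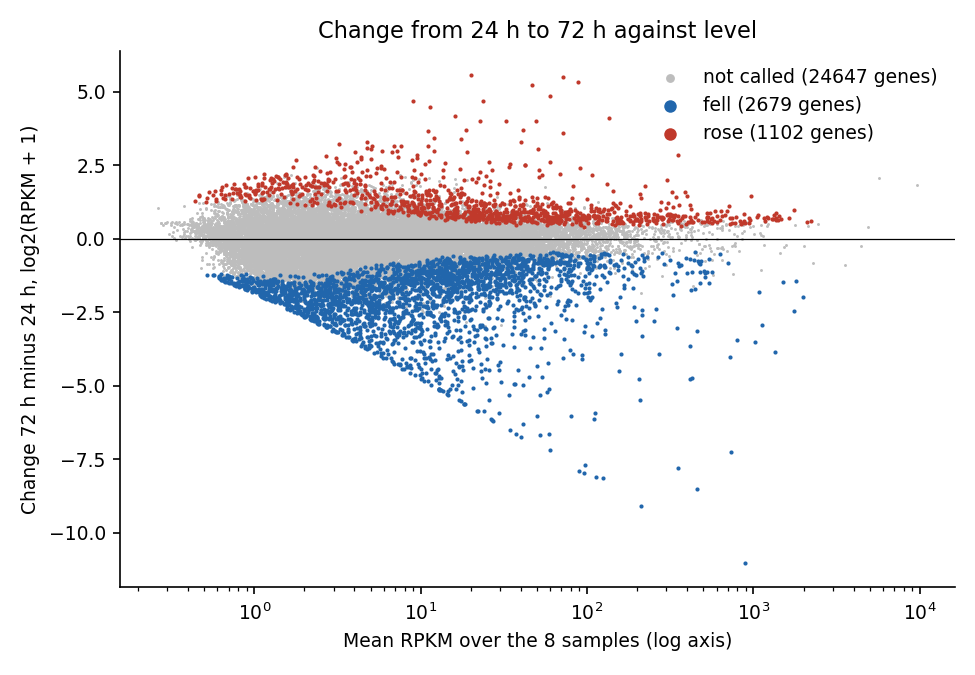
Change from 24 to 72 h in log2(RPKM + 1) against the mean RPKM over the 8 samples on a log axis, 1 point per gene. The 2679 genes that fell reach down to -11.04, while the 1102 genes that rose reach 5.57.

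The split between directions depended on scaling. The share of rising genes among those called was 29.1%, and it was 46.2% after each sample was rescaled to a common median and 45.1% after quantile normalization. These scalings moved the median change of all genes from -0.07 to 0.10 on the log2 scale, and falling genes were still the more numerous, with 2388 and 2409 against 2050 and 1977. Both 72 h samples lay above all 24 h samples in 5108 genes, 18.0% of those tested, and below them in 6238, 21.9%.

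When 24 h replicate 1 and 72 h replicate 2 were left out, 611 genes rose (2.15%) and 1471 fell (5.17%), so that the rising share was 29.3%. Of the genes called with all samples, 405 of the 1102 that rose and 1396 of the 2679 that fell were called again in that fit. In that fit the spread of the single 72 h sample is taken from the other times. Of the libraries left out singly, 72 h replicate 2 had the largest effect. Without it 416 genes rose and 1241 fell, whereas without replicates 1 and 3, which left replicate 2 alone at 72 h, 1961 rose and 5623 fell. With only the samples of 24 and 72 h in the fit, 280 rose and 1319 fell.

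The 2 components that fell most were c1697_g1 and c22170_g1. To be named, a gene needed a call, samples that did not overlap between both times, and a mean RPKM of 10 or more at the higher time. In c1697_g1, the RPKM was 2720 in 24 h replicate 1, 2139 in replicate 2 and 2219 in replicate 3. It was 0.249 in 72 h replicate 2, and replicates 1 and 3 held 0 reads. These libraries had 93854, 77081 and 86591 reads of this gene at 24 h, and 8 reads were found in 72 h replicate 2. It was thus among the 100 most abundant genes at 24 h, while its RPKM was at most 0.605 in every library of 48 and 72 h.

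At 24 h the mean RPKM of c1697_g1 was 2359 ± 315 (SD, n = 3). At 48 h it was down to 0.575 ± 0.0474 (SD, n = 3), and by 72 h to 0.125 ± 0.176 (SD, n = 2). The change from 24 to 72 h was -11.04 on the log2 scale (standard error 0.181, limma adjusted p = 1.79e-09). Nearly all of the fall had taken place by 48 h.

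In c22170_g1, the RPKM was 603 in 24 h replicate 1, 580.4 in replicate 2 and 498 in replicate 3. At 72 h it was 0.0516 in replicate 1 and 0.0501 in replicate 3, with 2 reads in each, and replicate 2 listed it at 0. No sample of 72 h came near any sample of 24 h. The change was -9.09 on the log2 scale (standard error 0.246, limma adjusted p = 1.17e-07). With 57221 reads at 24 h and 2 at 72 h, the near copies counted once, the ratio of pooled read rates was 19357, with a 95% exact interval of 5358 to 159842 that covers counting error only.

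The 2 components that rose most were c40474_g1 and c29456_g3. In c40474_g1, the RPKM at 24 h was 0 in replicate 1, 0.159 in replicate 2 and 0.0735 in replicate 3, with at most 4 reads per library. At 72 h it was 68.1 in replicate 1, 36.4 in replicate 2 and 68.8 in replicate 3. The 48 h samples lay between, from 16.1 to 19.6, and did not overlap with either of the other times. The change from 24 to 72 h was 5.57 on the log2 scale (standard error 0.291, limma adjusted p = 4.53e-06).

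In c29456_g3, the RPKM at 24 h was 0.0961 in replicate 1, 4.01 in replicate 2 and 3.49 in replicate 3. At 72 h it was 312 in replicate 1, 55.8 in replicate 2 and 305 in replicate 3. Replicate 2 was thus well under replicates 1 and 3, and below the 104 of 48 h replicate 3, but all 72 h libraries lay above all 24 h libraries. The change was 5.51 on the log2 scale (standard error 0.772, limma adjusted p = 0.00171). With voom weights on recovered reads it did not pass the test (adjusted p = 0.0869), and it is the least certain of these 4 genes.

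**Figure D2:**
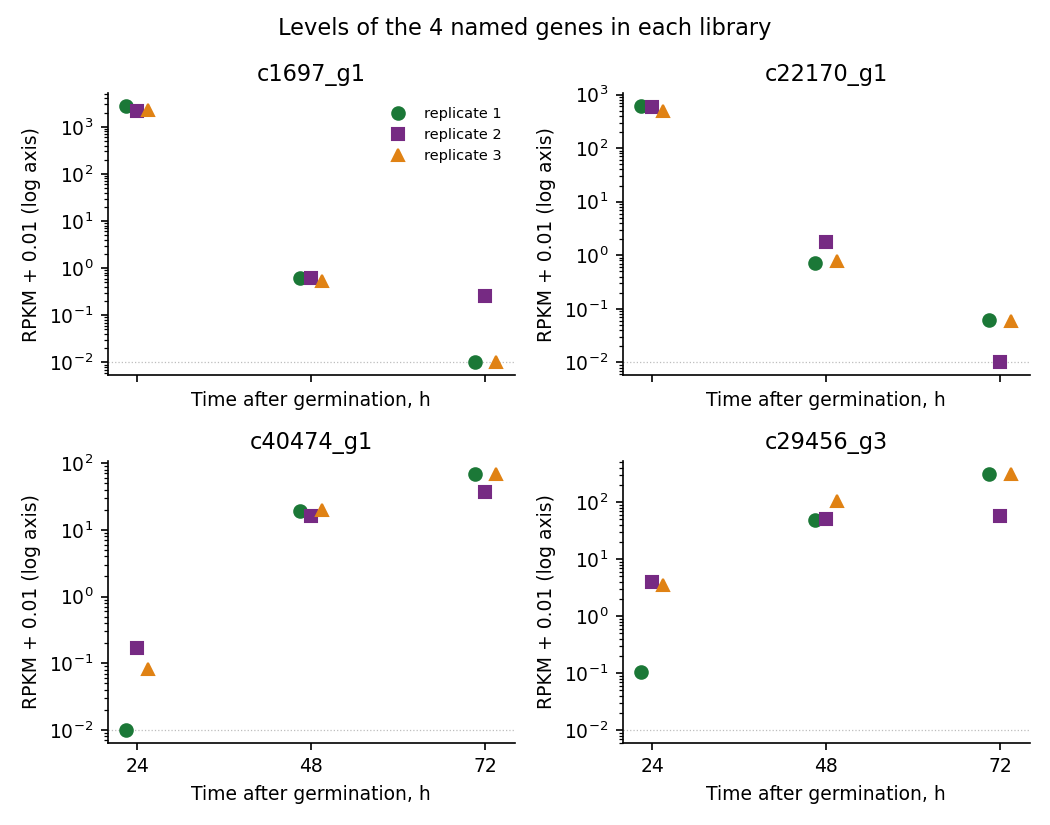
RPKM of the 4 named genes in each of the 9 libraries, with 0.01 added and drawn on a log axis, against the time after germination. The dotted line marks a value of 0, and for each gene the libraries of 24 h and 72 h do not overlap.

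The 18 genes next in rank by the same rule had changes from -8.52 to -6.15 on the log2 scale among those that fell and from 3.29 to 5.34 among those that rose. The falling ones had a mean RPKM from 71.8 to 1903 at 24 h and from 0 to 11.3 at 72 h. The rising ones had 0.0355 to 12.9 at 24 h and 12.9 to 242.9 at 72 h. In all, 842 rising and 1747 falling genes met the rule. On the log2(RPKM + 1) scale, falls of this size can only start from high levels.

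A group of 103 genes had an RPKM of at least 10 in every 24 h sample and under 1 in every 72 h sample, while 6 genes had the opposite pattern. These groups were defined by the levels compared, so their counts describe the data and are no test. The 103 genes had a median of the mean RPKM of 27.7 at 24 h, 0.240 at 48 h and 0.0898 at 72 h, and 72 of them were under 1 in every 48 h sample. They held 0.788% to 0.987% of the reads of the 24 h libraries and at most 0.00326% of the reads of the 72 h samples. In 72 h replicate 2, 90 of the 103 were at 0. The 6 genes that went up had a median of the mean RPKM of 0.325, 18.1 and 27.4 at 24, 48 and 72 h. Their number depended on the libraries, with 17 such genes without 72 h replicate 2 and 21 without both doubtful libraries.

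The genes that fell took a large share of the RNA at 24 h. They held 22.4%, 18.7% and 20.0% of the reads of 24 h replicates 1, 2 and 3. At 72 h they held 5.32% in replicate 2 and 8.45% in the averaged sample. At 24 h their mean share was 20.4% ± 1.89 (SD, n = 3). At 48 h it came to 10.04% ± 0.618 (SD, n = 3), and by 72 h to 6.88% ± 2.21 (SD, n = 2). The genes that rose held 7.89%, 10.03% and 8.59% of the reads of 24 h replicates 1, 2 and 3, and 15.7% of 72 h replicate 2 and 15.0% of the averaged sample. Since the genes were chosen by this contrast, these shares measure how much of the RNA was involved and are not tested. At 24 h the falling genes held the larger share in every library, and at 48 and 72 h the rising genes did.

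**Figure D3:**
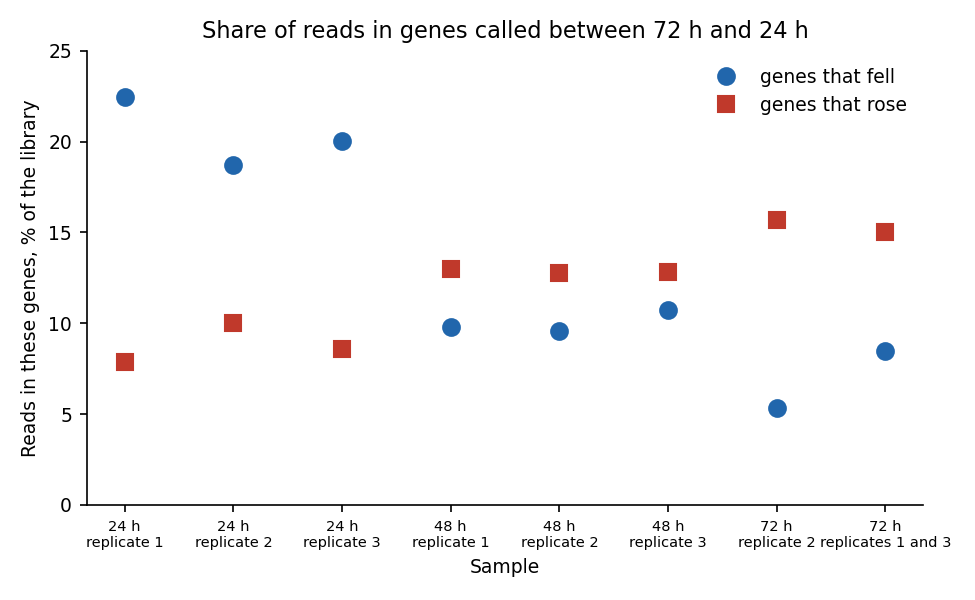
Reads in genes that fell (circles) and in genes that rose (squares) as a percent of the reads of each of the 8 samples. Falling genes hold 18.7% to 22.4% at 24 h and 5.32% to 8.45% at 72 h, and rising genes go from 7.89% to 10.03% up to 15.0% to 15.7%.

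The samples of 48 h did not enter the difference between 72 and 24 h. The median RPKM of the falling genes was 18.4, 15.3 and 16.3 in 24 h replicates 1, 2 and 3 and 5.31, 5.37 and 5.87 in 48 h replicates 1, 2 and 3. It was 2.08 in 72 h replicate 2 and 4.23 in the averaged sample. The median RPKM of the rising genes was 12.8, 16.1 and 14.1 at 24 h, 24.9, 23.5 and 25.5 at 48 h, and 32.8 and 30.4 at 72 h. For genes called with at least a 2-fold change, the change reached by 48 h was expressed as a fraction of the change reached by 72 h, on the log2(RPKM + 1) scale. Its median was 0.71 in falling genes, with quartiles of 0.50 and 0.92, and 0.66 in rising genes, with quartiles of 0.43 and 0.86. A fraction over 0.5 was found for 75.2% of the 2276 falling and 68.2% of the 566 rising genes. The mean of 48 h lay between those of 24 and 72 h in 88.9% and 85.7% of them. These fractions use the same 24 h libraries in both parts, and are given as a description.

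Genes at 0 in single libraries touched many of these calls. Among the 2679 genes that fell, 899 (33.6%) were at 0 in 72 h replicate 2, against 17.1% of the genes not called and 207 (7.73%) in the averaged sample of replicates 1 and 3. The 899 genes were low ones, with a median of the mean RPKM of 5.52 at 24 h, 0.668 at 48 h and 0.430 in the averaged sample of replicates 1 and 3. That sample alone lay below the 24 h mean by a median change of -1.87 on the log2 scale. The calls used both 72 h samples, so neither the direction of this change nor the share at 0 is a test. Without 72 h replicate 2, 428 of the 899 (47.6%) were still called, and so were 798 of the 1780 other falling genes (44.8%). The fit without this library leaves 1 sample at 72 h, so calls can be lost among genes at any level. The difference between these shares was not tested. The 1780 genes were higher, with medians of 25.2 RPKM at 24 h, 10.2 in the averaged sample and 5.68 in 72 h replicate 2.

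**Figure D4:**
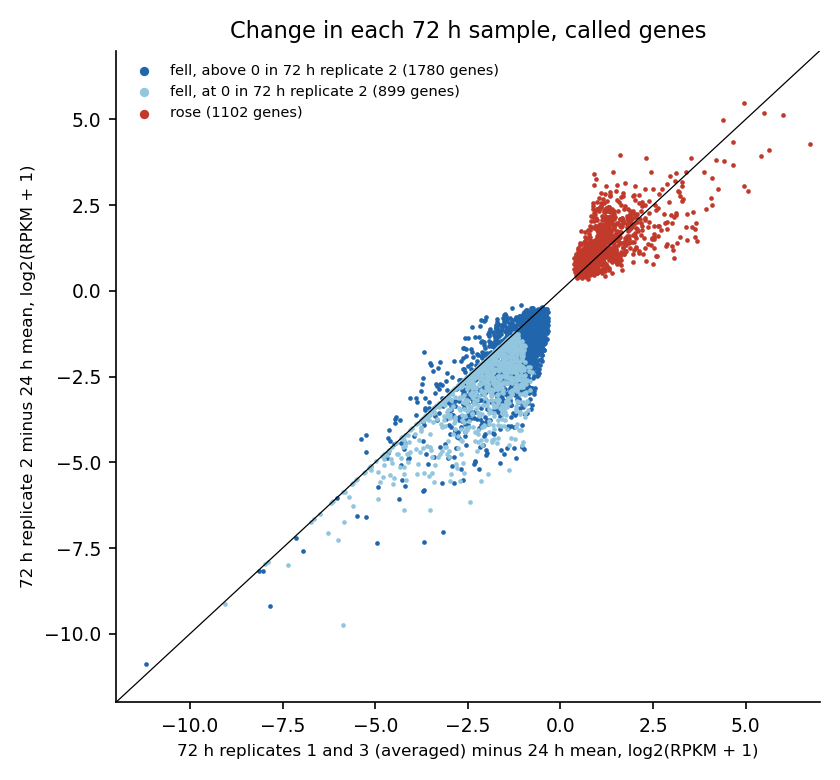
Change from the 24 h mean in 72 h replicate 2 (vertical) against the change in the averaged sample of 72 h replicates 1 and 3 (horizontal), in log2(RPKM + 1), for called genes; the line marks equality. The falling genes lie mostly below the line, with a median of -2.04 in replicate 2 and -1.36 in the averaged sample.

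The 2 samples of 72 h differed in the size of the change. Its direction was fixed by the choice of called genes. The median change of falling genes was -2.04 on the log2 scale in replicate 2 and -1.36 in the averaged sample. In rising genes it was 1.08 and 0.95. The 2 samples also differed outside the called genes, where the median change from the 24 h mean was -0.20 in replicate 2 and 0.12 in the averaged sample. The lower level in replicate 2 was thus also present in falling genes that it listed above 0, and the part of its missing low genes in the larger fall was not tested.

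At 24 h, the library with the most tested genes at 0 was replicate 1. Among the 1102 genes that rose, 185 (16.8%) were at 0 in it, while 37 (3.36%) were at 0 in replicate 2 and 36 (3.27%) in replicate 3. Among genes not called, 13.3% were at 0 in replicate 1. The 185 genes had a median RPKM of 0.328 and 0.332 in 24 h replicates 2 and 3, and of 4.20 and 2.68 in 72 h replicate 2 and the averaged sample. Without 24 h replicate 1, 93 of the 185 (50.3%) and 517 of the 917 other rising genes (56.4%) were still called. None of the falling genes was at 0 in any 24 h library, and none of the rising genes was at 0 in any 72 h sample. A gene at 0 at its higher time is unlikely to be called, so this follows largely from the choice of genes.

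Listed at 0 in every 72 h library were 204 of the genes that fell, and 20 of the genes that rose were at 0 in every 24 h library. The 204 genes had a mean RPKM of 1.37 to 254.4 at 24 h, with a median of 4.17. Set against a floor of 3 reads per library at 72 h, the median of their fold changes was at least 33.3-fold lower, and the largest of these bounds was 3890-fold. Of the 204, 70 were at 0 in all 48 h libraries too. The 20 rising genes reached a mean RPKM of 1.85 to 7.32 at 72 h, and the median of their fold changes was at least 8.02-fold higher against the same floor at 24 h. A gene at 0 is not shown to be absent, since a library can miss it. Libraries of similar totals differed in their genes at 0. With 30591025 and 31942406 reads, 24 h replicates 1 and 2 had 41.9% and 3.45% of genes with a mean RPKM under 2 at 0. The cause of this difference was not tested.

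Higher genes were called more often, and the balance of directions changed with level. Among 6816 genes with a mean RPKM under 2 over the 8 samples, 1.76% rose and 5.21% fell. Among 8227 genes from 10 to 50, 402 (4.89%) rose and 985 fell, and among 1739 genes from 50 to 200, 12.2% rose and 15.5% fell. In the 433 genes of 200 or more, 138 (31.9%) rose and 71 (16.4%) fell. The genes at 0 were concentrated at the other end. In the lowest class, 53.1% of the genes were at 0 in 72 h replicate 2 and 41.9% in 24 h replicate 1, and in the class of 10 to 50 it was 1.34% and 0.109%. When only the 10555 genes with a mean RPKM of at least 10 were tested, 982 rose (9.30%) and 1496 fell (14.2%), a rising share of 39.6%.

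**Figure D5:**
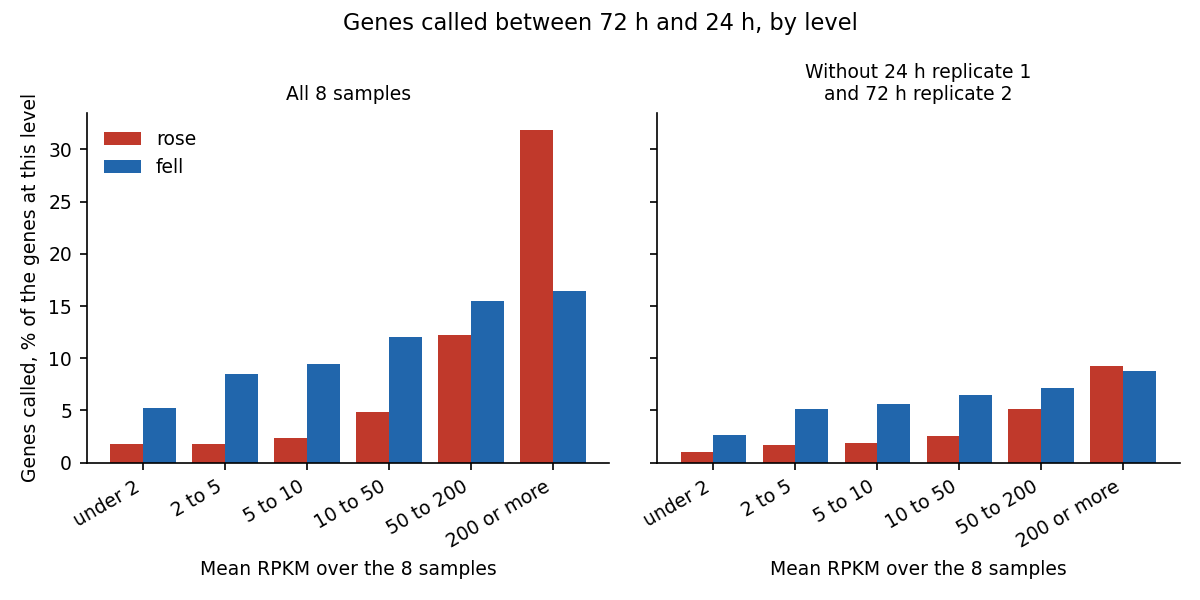
Percent of genes called as rising or falling in 6 classes of mean RPKM over the 8 samples, with all samples (left) and without 24 h replicate 1 and 72 h replicate 2 (right). In the class of 200 or more, 31.9% rose and 16.4% fell with all samples, and 9.24% rose and 8.78% fell without both.

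In the highest class, more genes rose than fell in 20 of the 24 settings that tested all 28428 genes, the one with all samples included, and more fell in 4. These settings refit the same samples and are not independent. Those without 72 h replicate 1 or 3 only put 1 near copy in place of the average. Without 24 h replicate 1 and 72 h replicate 2, 40 of the 433 genes rose and 38 fell. More of them fell than rose without 24 h replicate 3 (53 against 40), with only 24 and 72 h in the fit (45 against 30), without the intensity trend (44 against 26) and when a fold change over 2 was required (22 against 1). In the classes under 50, more genes fell than rose both with all samples and without the 2 doubtful libraries.

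Among the 100 most abundant genes at 24 h by mean RPKM, 27 rose, 25 fell and 48 were not called. Among the 100 most abundant at 72 h, 49 rose, 3 fell and 48 were not called. Over all genes tested, 3.88% rose and 9.42% fell. For genes with a mean RPKM of 200 or more over the 8 samples, it was 31.9% and 16.4%. The lists had 66 genes in common, 66% of each. They were chosen by the levels compared, so genes of the first list are more likely to fall and genes of the second to rise.

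The most abundant gene at 72 h had an RPKM of 3391, 7677 and 2156 in 24 h replicates 1, 2 and 3. It reached 27370 in 72 h replicate 2, where it took up 8.71% of the reads, and 6636 in the averaged sample. The times overlapped, and the change of 1.82 on the log2 scale (standard error 0.890) did not pass the test (limma adjusted p = 0.208). At 48 h its RPKM was 4978, 22030 and 2505 in replicates 1, 2 and 3. Replicate 2 was thus the highest at each time, and whether this goes with the replicate number was not tested.

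The 100 most abundant genes of each library held 18.7%, 19.8% and 17.1% of the reads in 24 h replicates 1, 2 and 3. They held 29.98% in 72 h replicate 2 and 19.2% in the averaged sample. The means were 18.5% ± 1.37 (SD, n = 3) and 24.6% ± 7.59 (SD, n = 2), and the exact 2-sided permutation test gave p = 0.4. The difference of 6.10 percentage points was 0.733 without 72 h replicate 2 and 3.05 without the most abundant gene. The number of genes that together held 50% of the reads was 1191, 1147 and 1306 in 24 h replicates 1, 2 and 3, and 662 and 1096 in 72 h replicate 2 and the averaged sample. Both 72 h samples lay below all 24 h samples, with means of 1215 ± 82.1 (SD, n = 3) and 879 ± 307 (SD, n = 2). The exact 2-sided permutation test, whose p is 2 times the smaller 1-sided p, gave p = 0.2, the smallest that this form allows for 3 against 2 samples. The difference of -336 genes was -119 without 72 h replicate 2 and -224 without the most abundant gene. After Benjamini-Hochberg adjustment over these 2 permutation tests, both p were 0.4.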

How the data were processed

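RNA of 9 root libraries was extracted with CTAB-PBIOZOL and prepared with a BGI RNA-Seq kit, per the labels. The authors deposited RPKM values for 54199 genes, 1 column per library, and their processing notes name HTSeq 0.6.0 as the counter. The aligner and the assembly are not given in the sources used here. The paper that cites these data describes other libraries, so no method was taken from it.

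Reads per gene were recovered as whole numbers from the RPKM steps, within 1e-08 reads or a relative 1e-12, with the smallest fitting gene length up to 100000 nucleotides, for all 54199 genes. They gave totals, shares of reads and 1 alternative test. Intervals and floors cover counting error only. The limma package (3.58.1, R 4.3.3) was fitted to log2(RPKM + 1) of 8 samples from 3 times, using its intensity trend but without a replicate block. Benjamini-Hochberg adjustment was over 28428 genes. Both steps were tested on simulated data. Tables were made with Python 3.11.15, pandas 2.3.3, NumPy 2.4.6 and SciPy 1.17.1.

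Because IDs have no names, only 2 rising and 2 falling genes were named, those with the largest change among genes with an adjusted p under 0.05, no overlap between times and 10 or more RPKM on average at the higher time. The comparison, the rule and the groups were chosen with earlier results of these data known. The main test was refitted under 25 alternatives. Those of the groups at 10 or more and under 1 were chosen after seeing the data.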

Additional observations from a re-analysis of the deposited data

How the results depend on the processing

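With all samples 3781 genes changed, 1102 up and 2679 down. Under other settings the counts were (changed, up, down) 2291, 643 and 1648 with a pseudocount of 0.01, and 2478, 982 and 1496 for genes with a mean RPKM of at least 10, where fewer genes were tested. They were 1599, 280 and 1319 with only 24 and 72 h in the fit, 2082, 611 and 1471 without 24 h replicate 1 and 72 h replicate 2, and 7584, 1961 and 5623 without 72 h replicates 1 and 3. A test against a 2-fold change gave 544, 53 and 491. The number that rose was 691 with no filter, 2050 after median rescaling, 1977 after quantile normalization, 672 without the intensity trend and 2016 with all 9 columns as separate samples. With single libraries left out, counts ran from 1657 to 3833 changed genes, 416 to 1243 up and 1241 to 2707 down. The lowest counts came without 72 h replicate 2. Fewer changed by over 1.5 times also without 24 h replicate 3 (2256) or 48 h replicate 1 (2469), and fewer rose without 24 h replicate 1 (662) or 48 h replicates 2 (700) or 3 (667). Some of these settings test fewer genes or samples, and the cause of the differences between counts was not tested. Of the called genes, 276 that rose and 1168 that fell were called in each of the 9 fits. The correlation of deviations from the group means was -0.05 to 0.22 for samples of one number and -0.25 to 0.08 for others. The highest, 0.22, was between replicate 2 of 24 h and replicate 2 of 48 h. Among samples of one number the lowest, -0.05, was between 48 h replicate 1 and the averaged sample. Whether the numbers pair the samples was not tested. A replicate block gave 3749 genes with the averaged sample as replicate 1 and 3823 as replicate 3. In the 4 named genes, 1 call was lost, that of c29456_g3 with voom weights on recovered reads. The 103 genes at 10 or more at 24 h and under 1 at 72 h became 266 with replicate 2 alone at 72 h.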

Other observations

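The 28428 tested genes came from 16293 components, of which 5110 had at least 2 tested genes. Among pairs of called genes within a component, 82 pairs both rose, 631 pairs both fell and 149 pairs had opposite directions, the last spread over 91 components. The files do not say whether genes of 1 component are near-identical copies that share reads, so counts of genes are not counts of independent transcripts. Genes from components with several tested genes made up 51.5% of the rising, 57.3% of the falling and 60.7% of all tested genes.

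The smallest gene length that fitted the reads had a median of 1128 nucleotides in rising genes, 1259 in falling genes and 1172 in all tested genes.

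The 2 samples of 72 h differed most in low genes. Among genes with a mean RPKM under 2, the median absolute difference between them was 0.93 on the log2(RPKM + 1) scale, against 0.33 between 24 h replicates 2 and 3 and 0.78 between 24 h replicate 1 and the mean of these. Among genes of 200 or more it was 0.23, against 0.26 and 0.17. Genes that were not tested held 0.303% to 0.903% of the reads of the 24 and 72 h samples, 0.329% and 0.403% in 48 h replicates 2 and 3, and 4.46% in 48 h replicate 1.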
